A study of Homo sapiens with 20 samples.

Results

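The second day of neuronal differentiation was compared with the first in neural progenitor cells, to see which genes still moved after the first day and whether they had come back by day 4. Day 1 and day 2 were each represented by 3 cultures, so 6 of the 20 samples of the series entered the comparison. The cells were neural stem cells grown in FGF on Matrigel and made from H1, an established line of human embryonic stem cells. At day 0 FGF was withdrawn, BDNF was added and the medium was exchanged for one based on Neurobasal and B27 without vitamin A, so both groups carried the same treatment and differed only in its length, 1 day against 2. All cells came from this 1 line and had not yet been moved to a new surface, a step that took place at day 4. The medium was renewed every other day, and whether day 2 cells were taken before or after a renewal is not given in the sources used here. Polyadenylated RNA was sequenced.

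In the deposited table each gene record had 1 FPKM for a day, which the authors derived from its cultures jointly. FPKM counts sequenced fragments per length of transcript and relative to all mapped fragments. No spread between cultures could therefore be computed, no difference below has a test, and the depth behind each value is unknown. A difference between days was taken as log2(FPKM + 0.1) of day 2 minus that of day 1, less the median of that difference over all expressed records, which was 0.043, and is called the change below. A record was expressed when its mean over the 7 days was at least 1 FPKM, and it is said to have risen or fallen when the change reached 1.5-fold. Adding 0.1 understates the change of records with few FPKM. In RNA from whole cultures, fewer cells of a type and less RNA per cell cannot be told apart.

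FGF signals through the ERK kinases and keeps neural progenitors dividing. When it is taken away, progenitors leave the cycle and proneural transcription factors, most of them basic helix-loop-helix proteins, switch on genes of the neuronal cytoskeleton and of synaptic vesicles. BDNF acts on the receptor TrkB, and a change of medium by itself brings immediate early genes and genes of the actin cytoskeleton into play.

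The labelled cell type was checked against its markers. All 8 neural stem cell markers were expressed, and their summed level was 4190 FPKM on day 1 and 4750 on day 2, most of it from the filament protein vimentin. Markers of neurons summed to 512 FPKM on day 1, 585 on day 2 and 711 on day 4, with 7 of 8 expressed. The pluripotency factors POU5F1 and NANOG were under 1 FPKM, as were the astrocyte protein GFAP, the oligodendrocyte factors OLIG1 and OLIG2, and the neural crest factor SOX10. Other members of these lists were expressed. On day 1 the pluripotent cell markers summed to 55.3 FPKM (3 of 9 expressed), neural crest markers to 49.3 (5 of 8) and astrocyte markers to 63.2 (4 of 8). Endothelial markers summed to 7.62 FPKM (2 of 8) and microglial and blood cell markers to 2.13 (2 of 8). Oligodendrocyte markers summed to 25.9 FPKM (1 of 8), with PDGFRA, in a record merged with FIP1L1, at 24.8. The mesenchymal markers, taken up below, summed to 249 FPKM (6 of 10).

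Little moved between day 1 and day 2. Of the 11793 expressed coding records 113 rose (0.958%) and 99 fell (0.839%), together 1.8%. The 2650 expressed lincRNA records moved more often, with 72 higher (2.72%) and 75 lower (2.83%), together 5.55%. LincRNAs are long transcripts from between the coding genes that have no open reading frame of note. The balance of rises and falls depends on the centring. Without it 141 coding records rose and 76 fell, and 84 lincRNA records rose and 68 fell.

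By the same rule 21.4% of coding and 27.1% of lincRNA records had moved between day 0 and day 1. The shares were 4.27% and 7.43% between day 2 and day 4, and 3.27% and 4.83% between day 4 and day 5. The step from day 1 to day 2 thus had the fewest coding calls of the 6 steps and the second fewest lincRNA calls. The steps differ in length, and neighbouring steps share a day. The spread of the changes, as a robust SD over coding records, was 0.144 from day 1 to day 2 against 0.431 from day 0 to day 1.

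**Figure D1:**
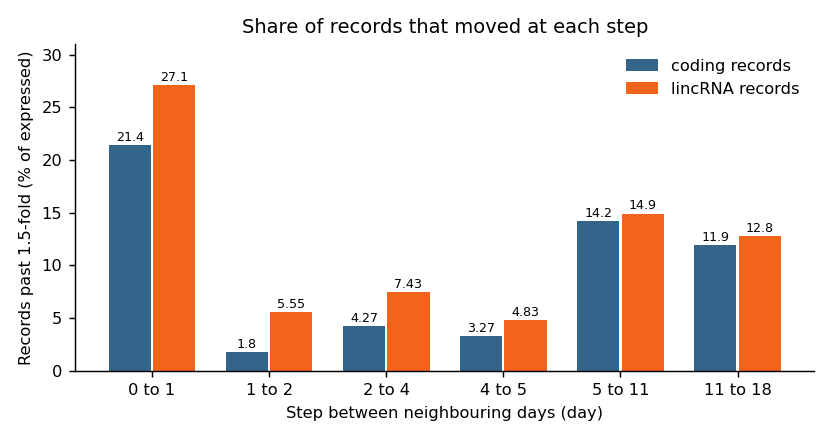
Percent of expressed coding (blue) and lincRNA (orange) records that moved by at least 1.5-fold between neighbouring days. The step from day 1 to day 2 has 1.8% of coding and 5.55% of lincRNA records, against 21.4% and 27.1% at the step before.

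Low records made up much of what moved. Among coding records with a mean of 1 to 3 FPKM 6.41% were called, among those of 3 to 10 FPKM 1.85%, and among those of 30 FPKM or more 0.586%. LincRNA records went from 7.42% at 1 to 3 FPKM to 2.12% at 30 FPKM or more. The part of measurement error in these shares was not tested. Risers also had GC-richer exons, with a median of 55.5% GC against 48.6% over all expressed coding records, and fallers had 51.7%. When coding records were split into 5 groups by GC, 1.99% of the GC-richest group rose and 0.382% of the GC-poorest. The median changes of these groups were 0.05 and -0.02. From day 2 to day 4 their medians were -0.09 and 0.04, the other way round.

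Whether a call had come back was read from day 4. The change from day 1 to day 4 was divided by the change from day 1 to day 2, and a record had returned when under 0.5 of its change was left, had held between 0.5 and 1.5, and had gone further above 1.5. Of the 113 coding risers 38 had returned (33.6%), 46 held and 29 went further. Of the 99 fallers 24 had returned (24.2%), 55 held and 20 went further. The day 2 value enters both steps, so an error in that value alone gives a return. Among coding records that moved by 1.2 to 1.5-fold, 49.1% of the 635 higher and 51.4% of the 615 lower ones had returned.

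**Figure D2:**
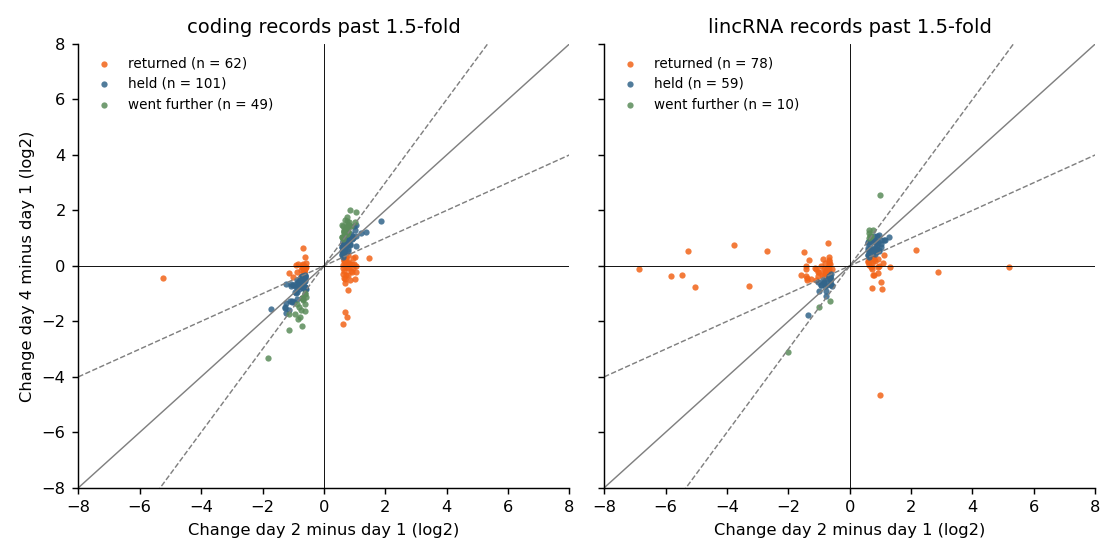
Change from day 1 to day 2 (horizontal axis, log2) against change from day 1 to day 4 (vertical axis, log2) for each called coding (left) and lincRNA (right) record. The solid line marks a fully kept change and the dashed lines 0.5 and 1.5 of it. In the coding panel 62 of 212 records lie in the returned zone, while in the lincRNA panel 78 of 147 lie in it, including the 3 widest rises and the 8 widest falls.

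The transcription factors that drive neuronal differentiation were the gene list with the most rises. Of 15 expressed members 7 rose and none fell, with a median change of 0.37, beside a median of 0.00 and 113 risers over all 11793 coding records. NHLH1, a helix-loop-helix factor of newborn neurons, went from 7.87 FPKM on day 1 to 16.8 on day 2 and 22.9 on day 4. ST18, a zinc finger factor, went from 1.67 to 3.29 and 3.95 FPKM. Both had also been higher on day 1 than on day 0, when they stood at 2.24 and 0.774 FPKM.

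The sensory and hindbrain factor POU4F1 went from 4.20 FPKM to 7.10 and 9.91, a change of 0.70. EBF2 (change 0.66) and EBF3 (0.60), factors that act downstream of the proneural genes, rose with it, as did INSM1 (0.65), which marks cells that leave the progenitor state. The NEUROD1 record (0.63) is merged with the neighbouring CERKL. None of the 7 had returned by day 4. NHLH1, ST18, INSM1 and the NEUROD1 record held, and POU4F1, EBF2 and EBF3 went further. The proneural factor NEUROG2, which acts earlier, did not reach 1.5-fold, at 5.06 FPKM on day 1 and 5.24 on day 2.

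With 1 FPKM added in place of 0.1, the changes of EBF2, EBF3, INSM1 and the NEUROD1 record were 0.47 to 0.48, under the call, and the median of the list was 0.19. The 4 records lay between 1.75 and 2.93 FPKM on day 1.

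Genes of the neuronal cytoskeleton, of RNA-binding proteins and of vesicles moved the same way on a smaller scale. Of 30 expressed members 4 rose and none fell, with a median of 0.23, and 23 of 30 had a change above 0, against 5850 of 11793 coding records. STMN4, a microtubule regulator, went from 4.28 FPKM to 7.15 and then 14.2. The vesicle protein SYT4 went from 2.00 to 3.51 and 6.57 FPKM. Both kept climbing to day 18, where they reached 77.3 and 47.6 FPKM.

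ELAVL4, an RNA-binding protein of neurons, stood at 0.368 FPKM on day 1 and 0.650 on day 2, so its call rests on a low level. The adhesion molecule L1CAM was the exception in time, going from 16.4 FPKM to 28.4 on day 2 and back to 16.4 on day 4. Over the next step, to day 4, 25 of the 30 members had a change above 0, with a median of 0.43.

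The 12 widest coding rises named by rule were of varied function. CHRNB4, a subunit of the nicotinic acetylcholine receptor, went from 0.510 FPKM to 1.16 and 1.44. ACHE, which breaks down acetylcholine, went from 1.32 to 2.95 and 2.31 FPKM. PDE2A, a phosphodiesterase for cyclic nucleotides, went from 0.370 to 1.14 and 1.03 FPKM. All 3 were at or under 3 FPKM on these days, and their rise was still there on day 4.

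SAMD11 had the largest rise of all coding records, 1.86, but from 0.199 FPKM to 1.01. Of its exon bases 14.6% lie in NOC2L on the other strand, at 23.7 FPKM on day 1 and 23.5 on day 2. The sum of SAMD11 and NOC2L, weighted by exon length, changed by -0.03. SHC2, an adaptor of neuronal receptor tyrosine kinases, went from 1.75 FPKM to 4.31 and 4.23. DUSP15, a phosphatase, stood at 0.10 FPKM on day 0, 3.39 on day 1, 7.15 on day 2 and 10.7 on day 4. The record named SILV, now PMEL, a pigment cell protein, went from 1.40 to 3.08 and 3.14 FPKM. In each of them the step held or went further.

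The neurotrophin list had 3 risers among 8 expressed members, beside 0.958% of all coding records, with a median of 0.23. Of the others 4 were below 0, down to -0.48. NGFR, the low-affinity receptor shared by the neurotrophins, went from 0.709 FPKM on day 0 to 3.80 on day 1, 8.22 on day 2 and 15.2 on day 4. It shares 60.5% of its exon bases with an antisense lincRNA record that stayed at or below 0.130 FPKM on days 1 and 2. The message of BDNF itself went from 0.818 FPKM to 1.79 and back to 1.08, and with 1 FPKM added its change was 0.58, just short of the call. Of the BDNF exon bases 61.5% lie in an antisense lincRNA record at 2.03, 2.19 and 2.11 FPKM on days 1, 2 and 4. The sum of both, weighted by exon length, changed by 0.19. VGF, a secreted neuropeptide precursor known as a neurotrophin-response gene, already stood at 53.9 FPKM on day 0. It went from 34.4 FPKM on day 1 to 64.1 on day 2 and then 24.9. The receptor kept its rise, whereas BDNF and VGF had come back by day 4.

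Genes of the actin cytoskeleton and of the YAP-TEAD transcription complex were mostly higher on day 2 than on both day 1 and day 4. Of 22 expressed members 3 rose, with a median of 0.13 and 18 of 22 above 0. Over all 11793 coding records 0.958% rose and 5850 were above 0. TAGLN, an actin-binding protein of contractile cells, stood at 367 FPKM on day 0, 106 on day 1, 226 on day 2 and 92.4 on day 4. CTGF, a matricellular protein and a standard YAP target, went from 168 FPKM to 296 and 226, with just under 0.5 of its change left. ANKRD1, another YAP target, stood at 13.6 FPKM on day 0 and went from 8.01 to 12.8 and then to 1.83. At the next step, to day 4, the list had a median of -0.55, and 2 of 22 members had a change above 0, beside 5780 of 11793.

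Other records that rose on day 2 and had returned by day 4 came from several lists or from none. RELB, a subunit of NF-kappa-B, went from 1.25 FPKM to 2.73 and back to 1.29. GDF15, a stress-induced secreted factor and the only riser among 18 expressed p53 targets, went from 12.4 to 21.4 FPKM and then to 3.49. TIMP3, an inhibitor of matrix proteases, went from 2.18 to 3.51 and 1.80 FPKM. TNFRSF12A, the receptor of the cytokine TWEAK, stood at 49.2 FPKM on day 0 and went from 22.6 on day 1 to 45.8 and 24.3. ICAM1, a leukocyte adhesion molecule, stood at 10.8 FPKM on day 0 and went from 2.32 to 3.91 and 0.694, so both were below their day 0 level on day 2. The last 2 were chosen after their values were seen.

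Immediate early genes, which respond to stimulation within minutes, showed both courses. Of 16 expressed members 2 rose, beside 0.958% of all coding records. The median was 0.26 and 14 of 16 were above 0, beside 5850 of 11793. At the next step 2 of 16 were above 0, beside 5780 of 11793, with a median of -0.44. JUND went from 33.9 FPKM to 61.8 and back to 38.6. EGR1 stood at 1.78 FPKM on day 0, 11.5 on day 1, 22.2 on day 2 and 23.3 on day 4, so its step was kept. FOS was at 2.22 FPKM on day 1 and 2.77 on day 2, and JUN at 35.2 and 45.2.

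**Figure D3:**
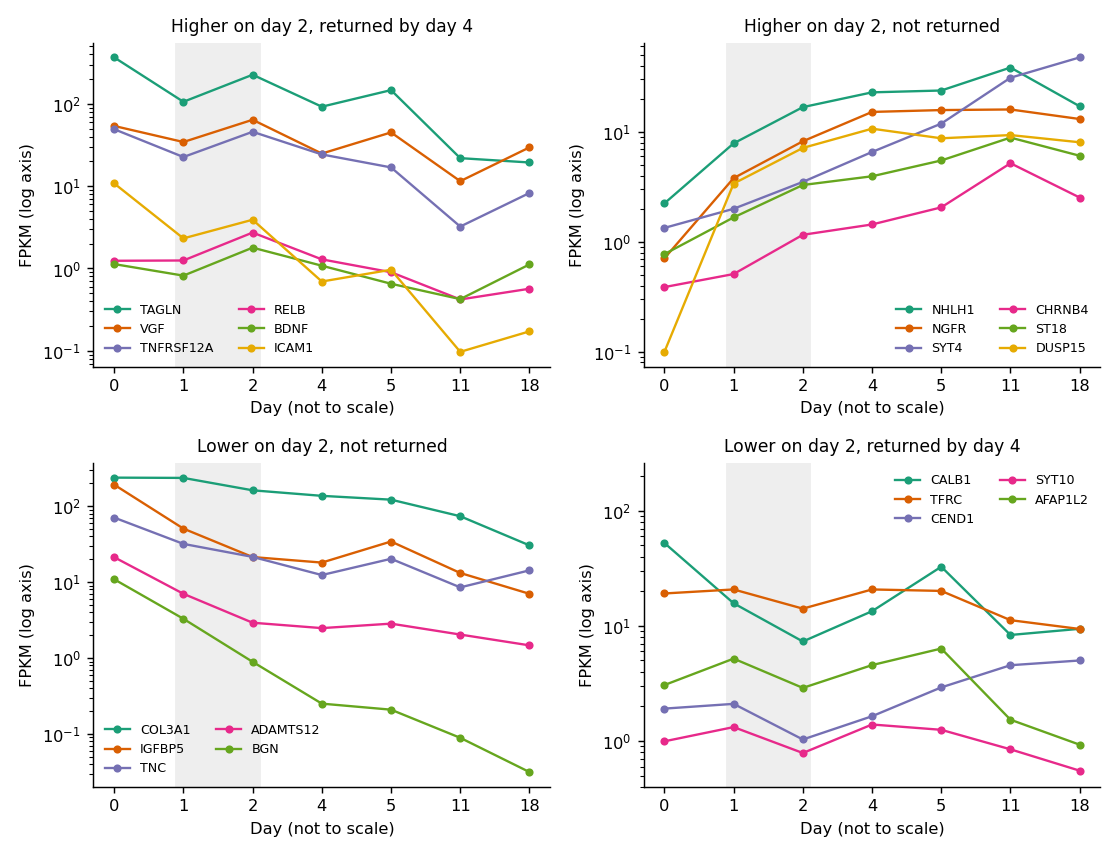
FPKM on each of the 7 days (log axes, days not to scale) for called coding records, in panels by direction on day 2 and by return at day 4; each point is the authors' value for that day and the grey band covers days 1 and 2. TAGLN is at 106, 226 and 92.4 FPKM on days 1, 2 and 4, below its 367 on day 0, NHLH1 rises through day 4, BGN falls from 3.29 to 0.892 and 0.251 FPKM, and CALB1 dips to 7.31.

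Of 33 expressed members of the matrix and adhesion list 5 fell and 1 rose, beside 0.839% of coding records that fell, with a median of -0.10 and 15 of 33 above 0. LAMA4, a laminin chain of basement membranes, went from 3.55 FPKM to 1.90 and 2.1. TNC, a matrix glycoprotein of progenitor zones, went from 31.9 to 21.5 and 12.4 FPKM. COL3A1, a fibrillar collagen, went from 236 to 162 and 137 FPKM and lay just inside the threshold with -0.59. FN1 (-0.60) and LAMA1 (-0.60) completed the 5. None of them had returned by day 4, and TNC and FN1 had gone further.

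The calls of these abundant records depend on the centring. Without it COL3A1, FN1, LAMA1 and TNC had changes of -0.54, -0.56, -0.55 and -0.57, short of 1.5-fold in each case.

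None of the 12 widest coding falls was a called member of that list. BGN, a small proteoglycan, went from 10.9 FPKM on day 0 to 3.29 on day 1, 0.892 on day 2 and 0.251 on day 4. IGFBP5, which binds insulin-like growth factors, went from 50.7 to 21.4 and 18.1 FPKM. IGFBP7, of the same family, went from 1.70 to 0.695 and 0.465 FPKM. The protease ADAMTS12 went from 7.02 to 2.92 and 2.48 FPKM, and SULF1, which trims sulphate from heparan sulphate, from 3.55 to 1.6 and 0.662 FPKM. CP, a copper-carrying ferroxidase, fell from 2.66 to 1.19 FPKM. These 6 records were also lower on day 1 than on day 0, when IGFBP5 stood at 192 FPKM and ADAMTS12 at 21.3. IGFBP5 shares 97.6% of its exon bases with an antisense record of 0.932 FPKM on day 1.

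Of 10 mesenchymal markers 6 were expressed, all 6 with a change below 0, and 2 fell, namely COL3A1 and POSTN, the latter from 4.35 FPKM to 2.77 and 1.85. Over all 11793 coding records 5942 were below 0 and 0.839% fell. The summed level of the list was 249 FPKM on day 1, 173 on day 2 and 145 on day 4, nearly all of it COL3A1. TWIST1, PRRX1 and DCN were under 1 FPKM and COL1A1 was listed at 0 on each of these days. The part of such cells in the falls was not tested.

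Further falls were of genes with unlike roles. HHIP, which binds hedgehog ligands, went from 6.70 FPKM to 2.88 and 4.32. NPY, a neuropeptide, went from 4.47 FPKM on day 0 to 8.50 on day 1 and 3.71 on day 2. SERPINF1, a secreted factor that restrains vessel growth, followed a like course from 1.62 to 6.17 and 2.84 FPKM. S100B, the single called astrocyte marker, went from 8.68 FPKM on day 0 to 1.25, 0.593 and 0.762. DHRS2, a dehydrogenase, went from 1.44 to 0.384 and 0.435 FPKM.

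The 27 expressed genes of cholesterol and fatty acid synthesis held 1 call, a fall, and had a median change of 0.02, with 14 of 27 above 0. HIST1H1C, a linker histone, was the only call among 9 expressed clustered histone genes and went from 3.81 FPKM to 2.44 and 1.64. All 9 had a change below 0, beside 5942 of 11793 coding records, with a median of -0.24. Most histone messages lack a poly(A) tail, so polyadenylated RNA shows only part of them.

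Of the 24 coding falls that had returned by day 4 a few are given. CALB1, a calcium-binding protein of neurons, went from 15.7 FPKM to 7.31 and 13.4. Chosen after their values were seen, TFRC, the transferrin receptor, went from 20.7 to 14.1 and back to 20.7 FPKM, and CEND1, a neuronal protein tied to cell cycle exit, from 2.1 to 1.03 and 1.64. The widest of the coding falls named by rule, HLA-H, went from 5.79 FPKM to 0.0608 and back to 4.43. HLA-H is a pseudogene of the class I family, and its level also jumped between the other days, from 0.0118 FPKM on day 0 to 0.436 on day 5. Whether reads shared with other members of that family enter this value was not tested.

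Genes of DNA replication dipped together without a single call. In 26 of 27 expressed members the change was below 0, with a median of -0.25, and at the next step 26 of 27 had a change above 0, with a median of 0.29. Over all 11793 coding records 5942 were below 0, and 5780 were above 0 at the next step. CCNE1, the cyclin of entry into S phase, went from 5.16 FPKM to 3.55 and 4.37, and its change of -0.57 was the widest of the list. MCM6, a subunit of the replicative helicase, chosen after its values were seen, went from 31.6 to 24.9 and 35.5 FPKM.

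Of 26 expressed mitotic genes 23 had a change below 0, beside 5942 of 11793 coding records, with a median of -0.15. From day 2 to day 4 the median was -0.07, with 9 of 26 above 0. CENPE, a kinesin of the kinetochore with the widest change of the list, went from 22.0 FPKM to 17.1 and 19.9, and 0.46 of its change was left on day 4. Both lists had been lower on day 1 than on day 0, with medians of -0.65 for replication and -0.85 for mitosis.

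All 28 ribosomal protein genes of the list had a change above 0, between 0.04 and 0.33, with a median of 0.19, and none was called. RPL7, which is outside the list, rose by 1.46 and is described further below. Over all 11793 coding records 5850 were above 0. RPL5 went from 404 FPKM to 523 and 594. On day 4 25 of 28 were above day 2 again. EEF1G, an elongation factor subunit of the translation machinery, went from 145 to 249 and 283 FPKM and was chosen after its values were seen. Another record of the same symbol, on chromosome 7, went from 1050 to 1240 and 1390 FPKM, a change of 0.19. The sum of both, weighted by exon length, changed by 0.3, short of 1.5-fold.

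**Figure D4:**
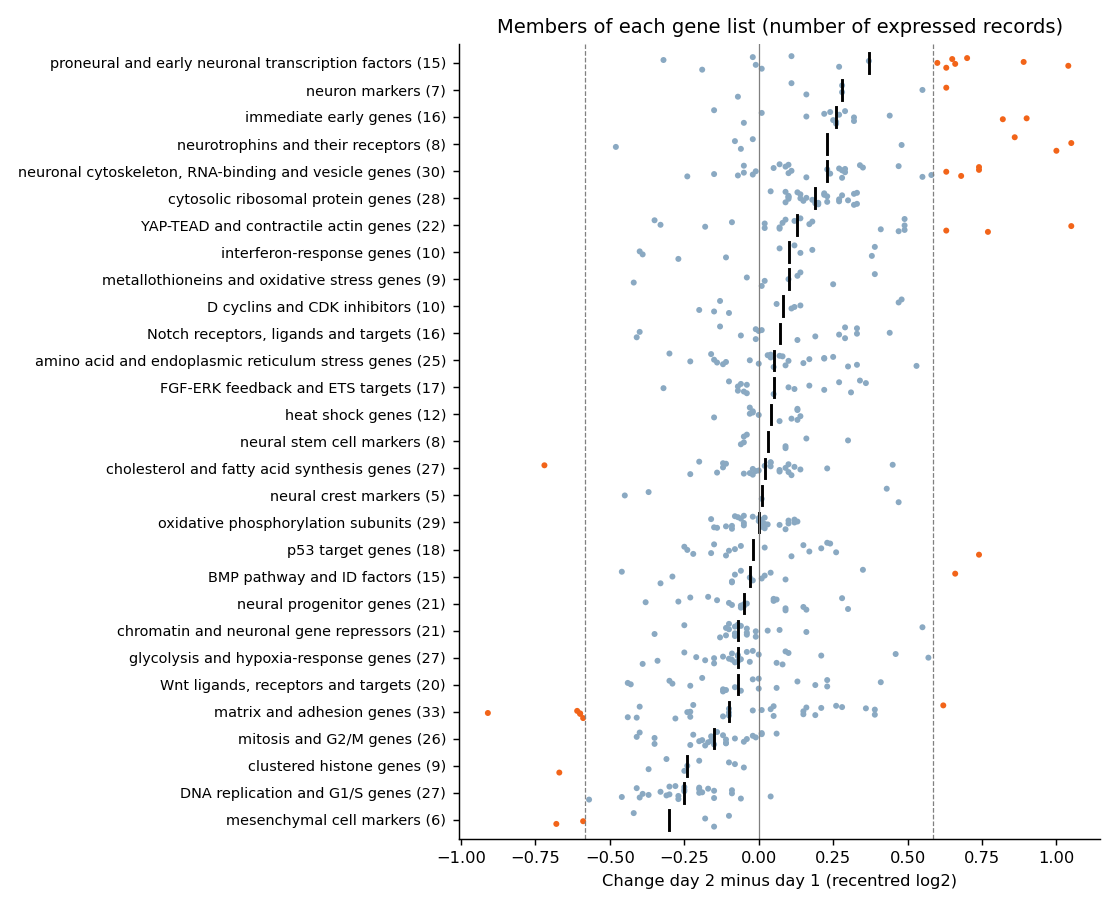
Change from day 1 to day 2 (log2, centred on the median of expressed records) for each member of the lists with at least 5 expressed members; orange points are past 1.5-fold (dashed lines) and black bars are medians. Proneural factors sit at the top with a median of 0.37, and the mesenchymal markers at the bottom with -0.30.

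Lists of FGF signalling and of cell stress had no call. The FGF-ERK feedback and ETS target genes, with a median of -0.57 from day 0 to day 1, had a median of 0.05 and no call among 17. Their widest member PHLDA1 went from 38.4 FPKM to 50.8 and back to 36.4. From day 2 to day 4 the list had a median of -0.58, and 2 of 17 members were above 0, beside 5780 of 11793 coding records. Amino acid and endoplasmic reticulum stress genes, with a median of 1.15 on day 1, had a median of 0.05 and no call among 25. Their widest member was the stress factor DDIT3, at 56.3 FPKM on day 1, 83.5 on day 2 and 51.5 on day 4. The median of these stress genes from day 2 to day 4 was -0.35, with 2 of 25 above 0. In all, 21 of the 34 lists, 15 of them pathways and the rest cell type markers, had no member past 1.5-fold.

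Among the other pathways without a call, the median lay between -0.07 and 0.10. Notch genes had a median of 0.07 over 16 members, with the target HES4 at 30.3 FPKM on day 1 and 42.5 on day 2. Wnt genes had -0.07 over 20 members, with the antagonist SFRP2 at 127 and 96.7 FPKM. Glycolysis and hypoxia-response genes had -0.07 over 27 members, with the enolase ENO2 at 14.3 and 21.8 FPKM. Neural progenitor genes had -0.05 over 21 members, with the RNA-binding protein LIN28B at 9.46 and 7.44 FPKM.

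For D cyclins and CDK inhibitors the median was 0.08 over 10 members, with CDKN2D at 4.53 and 6.55 FPKM. Metallothionein and oxidative stress genes had 0.10 over 9 members, with the quinone reductase NQO1 at 60.4 and 46.6 FPKM. From day 2 to day 4 the median of these 9 was -0.51, with 1 above 0. Interferon-response genes had 0.10 over 10 records, with the factor IRF1 at 2.87 and 2.22 FPKM. Chromatin and repressor genes had -0.07 over 21 members, with the neuronal BAF subunit ACTL6B at 1.27 and 1.96 FPKM. Heat shock genes (0.04, 12 members) and subunits of oxidative phosphorylation (0.00, 29 members) hardly moved, with the widest changes -0.15 for HSPH1 and -0.16 for COX6A1. The BMP list, with a median of -0.03 over 15 members, had a single riser, the inhibitor of differentiation ID1, at 4.06 FPKM on day 1, 6.69 on day 2 and 6.26 on day 4.

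Of the 212 called coding records 31 belonged to one of the lists. With 1 FPKM added in place of 0.1, 19 of the 65 called records named by rule or list were short of 1.5-fold. These included BDNF, EBF2, EBF3, INSM1 and NEUROD1, the matrix genes COL3A1, FN1 and LAMA1, and TMEM63C, CHRNB4, SYT4, ELAVL4, ANKRD1, TIMP3, ID1, POSTN, S100B and HIST1H1C. At the edge of the call, the rise of TMEM63C (0.59) was the last inside and that of TPPP (0.58) the first outside, and for falls these were COL3A1 (-0.59) and TGFB2 (-0.58).

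Short stretches of promoter are shown for 5 called genes, 2 whose rise had returned by day 4 (VGF and JUND) and 3 whose rise was kept (EGR1, EBF3 and POU4F1). They were taken from RefSeq (GRCh38.p14), and motifs were searched in the 250 bases before the start, on both strands. Capitals mark the motif, and each stretch reads 5′ to 3′ along the gene. The first 2 hold a CArG box, the binding site of serum response factor, in front of EGR1, at chr5:138465364-138465393 and chr5:138465386-138465415 (plus strand). The third holds the same box in front of EBF3, at chr10:129964345-129964374 (minus strand). Those of VGF, at chr7:101165630-101165659, and JUND, at chr19:18281804-18281833 (both minus strand), hold the cyclic AMP response element TGACGTCA. The last, of POU4F1 at chr13:78603650-78603679 (minus strand), holds the E-box CAGCTG, a site of helix-loop-helix factors.
EGR1, first box: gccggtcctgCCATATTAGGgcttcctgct
EGR1, second box: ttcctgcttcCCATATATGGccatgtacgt
EBF3: gcggccgctcCCATATATGGcgcaggcacc
VGF: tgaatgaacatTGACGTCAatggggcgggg
JUND: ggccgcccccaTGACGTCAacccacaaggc
POU4F1: gacagacggagaCAGCTGatgcctgtcagc

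Of the 38 risers that returned 28 had a promoter in the RefSeq table, and of the 75 that did not 56 had one. TGACGTCA was found in 3 of the 28 (10.7%) and in 2 of the 56 (3.57%), beside 3.13% of 9363 promoters of expressed coding records and 1.77% of all 27305. The fallers held it in 0 of 18 promoters when returned and in 3 of 51 (5.88%) when not. The letters TGANTCA, which take in the AP-1 sites TGACTCA and TGAGTCA and a pair of near matches, were in 4 of the 28 (14.3%) and 2 of the 56 (3.57%). They were in 1 of 18 returned fallers (5.56%) and 5 of 51 others (9.8%), beside 3.43% of expressed and 6.6% of all promoters. In 3 of the 4 returned risers the match was a near match, TGAATCA or TGATTCA. CArG boxes were in none of the 28 and in 3 of the 56 (5.36%), against 1.09% of expressed promoters, and E-boxes in 21.4% and 19.6%, against 12.2%, while 19.6% of the fallers that did not return held an E-box. These counts are small and describe letters in a window, not binding.

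Among lincRNA records the falls came back in larger number. Of the 72 risers 29 had returned (40.3%), 36 held and 7 went further, and of the 75 fallers 49 had returned (65.3%), 23 held and 3 went further. In the band of 1.2 to 1.5-fold 41.3% of 288 higher and 56.2% of 226 lower lincRNA records had returned. Without pseudogene-flagged records and those that overlap a coding record, 34.5% of 29 risers and 39.1% of 23 fallers had returned. A day was listed at 0 in 6 called lincRNA records on day 1 or day 2, of which 5 were at 0 on day 2 and above it on days 1 and 4. Called lincRNA records were short, with a median of 1273 exon bases in risers and 1079 in fallers, against 3754 over all expressed lincRNA records. Of the risers 27.8% and of the fallers 26.7% had fewer than 500 exon bases, against 8.15%. Exons that overlap a coding record were as common in called as in all lincRNA records, at 48.6% of risers, 50.7% of fallers and 50.1% of all.

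Among records listed above 0 on each day, linc-SLC25A45 was the fifth widest lincRNA rise and went from 28.9 to 66.3 and 57.1 FPKM. It shares 94.2% of its exon bases with lincRNA records on the other strand. Its rise was kept on day 4. With no strand in the counting stated, reads of both strands cannot be told apart.

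Several of the 12 widest lincRNA moves, among records listed above 0 on each day, lay on or opposite pseudogene copies of coding genes. The deposited pseudogene flag stood on 13.9% of lincRNA risers, 30.7% of fallers and 38.8% of the fallers that had returned, against 30.2% of all expressed lincRNA records. The record linc-WDR41, of 222 exon bases opposite the ribosomal pseudogene RPL7P23, went from 172 FPKM to 801 and 263. RPL7 itself, a ribosomal protein gene with many such copies, went from 44.2 to 125 and 55.8 FPKM, a change of 1.46 where the 28 ribosomal protein genes of the list reached at most 0.33. Both peaked on day 2 alone, and on the other days RPL7 lay between 38.8 and 55.8 FPKM and linc-WDR41 between 150 and 263. linc-LRRC37A2, on the pseudogene NSFP1, went from 0.396 FPKM to 3.70 and 0.337. linc-TPD52-1, on RPL13AP18, went from 1.21 to 3.16 and 2.67 FPKM. linc-PHF10-1, of 360 exon bases within PHF10, went from 3.86 to 8.86 and 5.30 FPKM.

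The widest falls shared bases with other records, too. linc-PCDH20-8, on the pseudogene HNRNPA3P5, went from 14.3 FPKM to 1.43 and 8.81, while linc-BORA-9 on the other strand of the same bases went from 37.4 to 52.3 and 48.8. linc-BRWD3, opposite VDAC1P1 and wholly within a record named VDAC1, went from 2.22 to 0.269 and 3.38 FPKM, with that record at 24.3, 26.3 and 25.7. linc-ISCU-AS, wholly within the exons of the iron-sulphur scaffold gene ISCU, went from 10.2 to 3.4 and 8.23 FPKM beside 42.1, 47.8 and 42.6 for ISCU. linc-NBPF15-AS went from 3.89 to 1.37 and 5.65 FPKM, with 94.1% of its exon bases in NBPF records. linc-CD28, within linc-RAPH1-1, went from 3.47 to 0.805 and 0.329 FPKM and alone among the 6 widest falls had not returned.

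In a pair of cases a fall on day 2 was matched by a rise of a record that shares its bases or its symbol. At chr2:198244088-198245718 (hg19), the place of the NPM1 pseudogene NPM1P46, linc-COQ10B-1 on the plus strand went from 4.45 FPKM to 0.00742 and 3.65, and linc-ANKRD44 on the minus strand from 2.40 to 6.23 and 2.39. Weighted by exon length, the sum of both was 7.24 on day 1, 6.79 on day 2 and 6.4 on day 4, a change of -0.14. The records named TIMM23, a subunit of the mitochondrial import channel, lie on chromosome 10, and how much sequence they share was not measured. For the one on the plus strand the closest GENCODE gene of that strand, TIMM23B, covers 24.4% of the exon bases. That record went from 6.55 FPKM to 12.9 and 7.13, and the other from 40.7 to 25.2 and 37.6. Their weighted sum was 68.1, 70.3 and 66.4, a change of 0.00. The TIMM23 pair was chosen after its values were seen. At both places the members of the pair were past 1.5-fold in opposite directions and had returned by day 4, while their sum stayed within 1.5-fold.

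**Figure D5:**
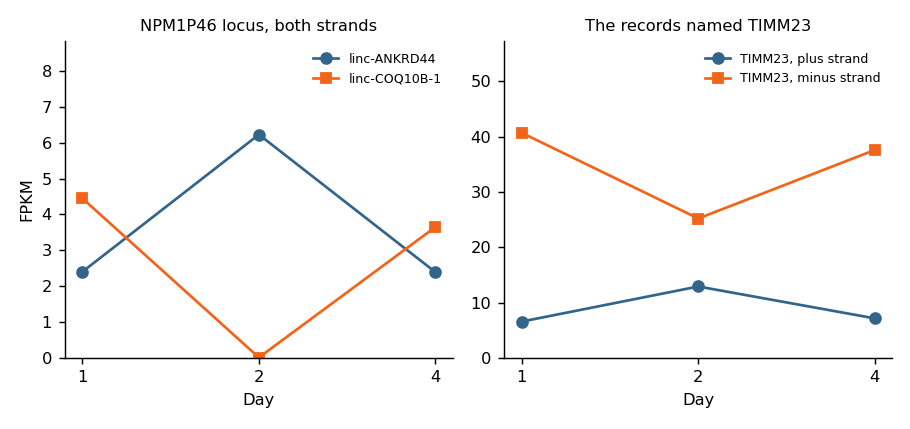
FPKM on days 1, 2 and 4 (linear axes from 0) for pairs of records that share bases or a symbol. The pairs at NPM1P46 and TIMM23 move in opposite directions on day 2 and come back on day 4.

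Of the 147 called lincRNA records 87 shared exon bases with another expressed record (59.2%), against 59.8% of all 2650. In 2 of the 87 that other record was past 1.5-fold the opposite way, and in 8 it was past 1.5-fold the same way. The 2 were linc-ANKRD44 and linc-COQ10B-1, the pair given above, each counted as the partner of the other. Among called coding records these counts were 27 of 212 (12.7%), against 21.4% of all 11793, with 0 opposite and 5 the same way. The same-way pairs included ADAMTS12 and its antisense record, at -1.28 and -1.36, and TNC and its antisense record, at -0.61 and -0.99.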

How the data were processed

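Paired-end RNA-Seq of polyadenylated RNA was compared between day 1 and day 2 (3 cultures each, grouped by title). As the study's methods describe, reads were aligned by the authors to hg19 with TopHat2, and they merged Cufflinks assemblies with lincRNA and coding catalogues and ran Cuffdiff2 at default options; program versions are not given in the sources used here, and default options count without strand. The deposited FPKM values are 1 per record and day (columns of single samples: 0), so cultures could be neither compared nor paired, and SD, intervals and tests were not computed. The deposited comparisons of adjacent days, the authors' log2 fold changes, p-values, q-values and score, were not used.

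The 38369 records (20237 coding, 18132 lincRNA) were reduced to 14443 with a mean of at least 1 FPKM; 18 of these had a day listed at 0, and 7 called records had day 1 or day 2 at 0. The change was log2(FPKM + 0.1), less the median (0.043 for day 2, 0.04 for day 4, both against day 1), and calls were made at 1.5-fold. Exon GC came from GRCh37, pseudogene and strand partners from GENCODE v44lift37, promoters from RefSeq. The scripts ran in Python 3.11.15 with pandas 2.3.3 and numpy 2.4.6 and were tested on simulated data. Members and lists were chosen with earlier results of these data known. Named were the 12 coding and 6 lincRNA records with the widest rise and fall (at least 1 FPKM on day 1 or 2, no day at 0, primary chromosomes), the called members of each list (2 rises and 2 falls if over 4) or else its widest member, and the records next to the threshold; the list's other calls are given by their change, and records outside this rule were chosen after their values were seen. Alternatives were another pseudocount, filter, centring, call and return limit, and, added after the data were seen, centring within GC bins, a minimum exon length and single-symbol records. Some items that the rule names are not reported here.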

Additional observations from a re-analysis of the deposited data

How the results depend on the processing

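The 212 coding calls became 78 at a mean of at least 5 FPKM, 32 at 2-fold, 604 with no filter and 85 with 1 FPKM added. For the 113 risers these were 51, 13, 249 and 44, and for the 99 fallers 27, 19, 355 and 41. The 147 lincRNA calls became 29, 41, 1341 and 69, and 52 for records with no pseudogene flag and no coding overlap, with risers at 15, 14, 521, 28 and 29 and fallers at 14, 27, 820, 41 and 23. The 31 called list members became 20 at a mean of at least 5 FPKM, 4 at 2-fold and 14 with 1 FPKM added. No centring, centring by class, centring within GC bins, 0.01 FPKM added, exons of at least 500 bases and single-symbol records moved none of these counts by over 1.5 times. The share of called records that had returned ranged from 21.9% to 38.5% for coding and from 36.5% to 75.6% for lincRNA records, the latter from clean records and from the 2-fold call. No named record reversed its direction. The balance of the calls did turn. Among coding records falls outnumbered rises at 2-fold, 19 to 13, and with no filter, 355 to 249. Among lincRNA records rises outnumbered falls at a mean of at least 5 FPKM, 15 to 14, and among clean records, 29 to 23. No paired analysis was possible because the deposited values are 1 per day over all cultures, so leaving out a culture and a replicate block were not run. Low records limit the calls, and the depth behind them is unknown.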
